A study of Arabidopsis thaliana with 4 samples.

Results

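Serine carboxypeptidase-like (SCPL) and subtilase (SBT) genes of Arabidopsis thaliana were followed in mixed-stage inflorescences of Col-0, the wild type, and of xrn4-5, a mutant in the Col-0 ecotype with an altered XRN4 gene. The XRN4 enzyme works in the cytoplasm, where it digests RNA that has lost its cap, starting at the 5′ end. Members were the probe sets with exactly 1 gene in the platform annotation whose symbol begins with SCPL or SBT in any letter case, written here in capitals. This gave 37 genes, 29 SCPL and 8 SBT, of 13356 genes named by a symbol on a probe set of their own. The array holds 22746 probe sets without controls. No member had more than 1 probe set of its own. A further 2 probe sets were left out because each is shared by several genes, one by SCPL36 and SCPL37 and the other by SCPL39 and a different gene. ATSBT5.2, whose symbol begins with other letters, also fell outside the rule, as did subtilase genes under other names, such as ARA12. The reference annotation holds 49 symbols that begin with SCPL. The members are therefore a part of each family, and counts and medians below hold for these members only.

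Each genotype was represented by 2 ATH1 oligonucleotide arrays, numbered 1 and 2, hybridised with biotin-labelled RNA made from 15 µg of total RNA. Plants of both genotypes grew at 21 °C in long days of 16 h light and 8 h dark. Whether the samples of one genotype were grown apart, and how many plants each holds, is not stated, so p-values rest on a spread between samples that may be only technical. The study asked which transcripts differ in level between xrn4-5 and Col-0. No probe set was named for XRN4 itself, so the labels could not be checked on the mutated gene.

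Both families encode secreted or vacuolar enzymes with a catalytic serine. Serine carboxypeptidases remove amino acids from the C-terminal end of peptides, but some plant SCPL proteins instead work as acyltransferases, among them the enzymes that make sinapate esters from sinapoylglucose. Subtilases are endoproteases related to bacterial subtilisin. In plants they cleave precursors of peptide hormones, process cell wall enzymes such as pectin methylesterases and act in the shedding of floral organs, in pollen and in seeds.

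Values are signal intensities as the authors scaled them, in arbitrary units. Probe sets differ in how strongly they hybridise, so signals of different genes were not set against each other. Differences between genotypes were tested with limma on log2(value + 32), a scale that understates the change of dim probe sets, and only for the 13647 probe sets left when the 40% with the lowest mean were set aside. That filter lay at a mean signal of about 157. Of the members, 24 passed it, 19 SCPL and 5 SBT genes, and 13 did not. In tested SCPL genes the signal ran from 151 to 5370 over all arrays, and in tested SBT genes from 131 to 5484.

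**Figure D1:**
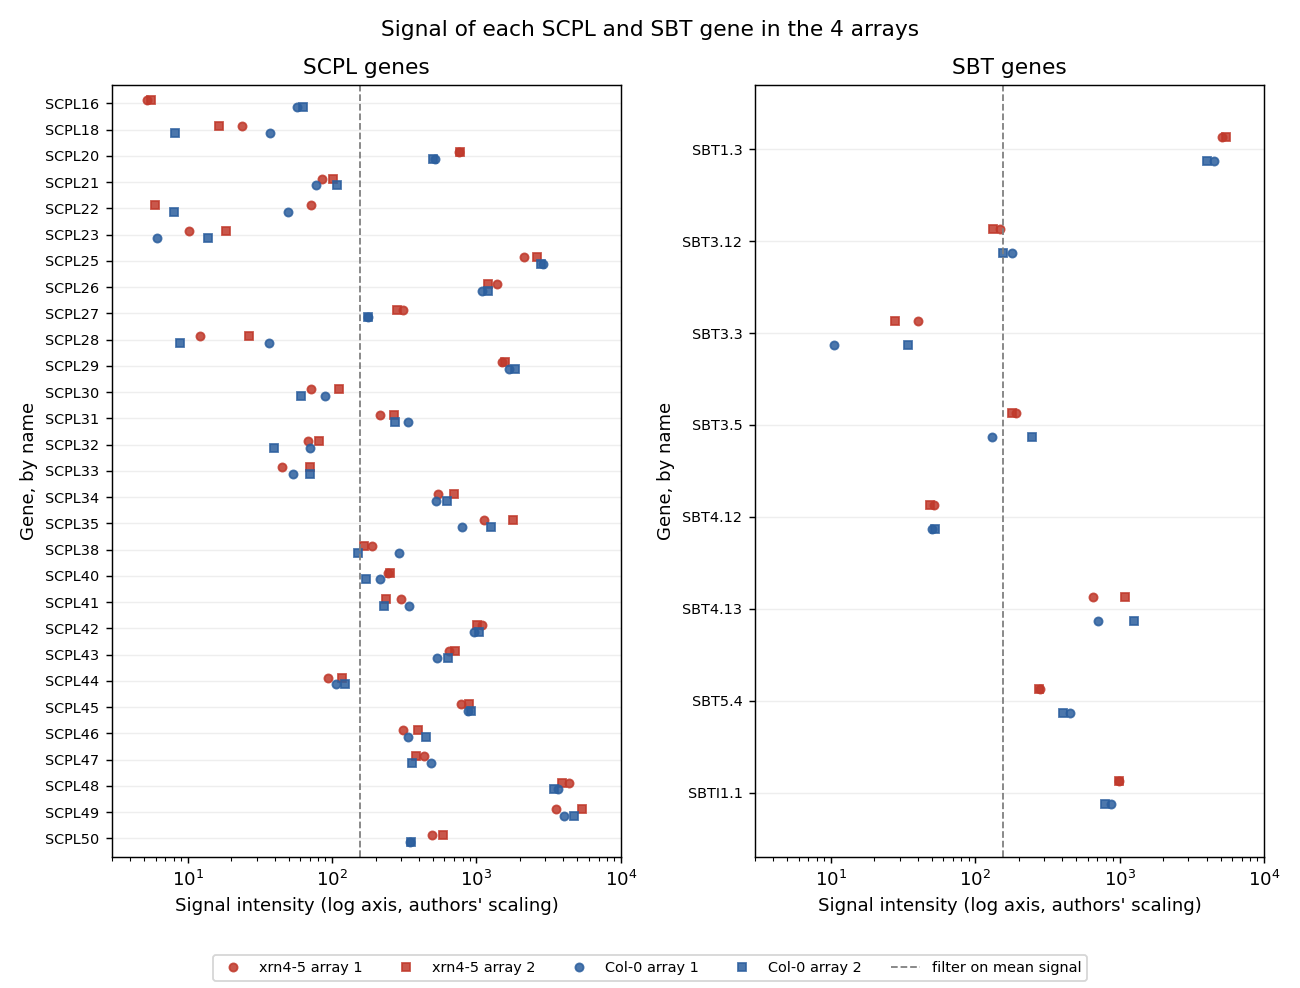
Signal intensity of each SCPL gene (left) and SBT gene (right) on a log axis, with 1 point per array, red for xrn4-5 and blue for Col-0, circles for array 1 and squares for array 2. Genes are in order of name, and the dashed line marks the mean signal of 157 below which a gene was not tested. SCPL16, SCPL20, SCPL27, SCPL50 and SBT5.4 have red and blue points apart, whereas those of most other genes lie close together or mix.

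No SCPL or SBT gene passed the limma test after Benjamini-Hochberg adjustment over all tested probe sets (smallest adjusted p = 0.391), a rule that called 0.00733% of all tested probe sets. At an unadjusted p under 0.05, 4 of the 24 tested members had higher signal in xrn4-5, SCPL20, SCPL27, SCPL50 and SBT1.3, which is 16.7% against 5.38% of all tested probe sets. In the opposite direction SBT5.4 was the 1 member, 4.17% against 3.95%. No tested member differed by 2-fold, a difference reached by only 69 of all 13647 tested probe sets. The median log2 difference, xrn4-5 minus Col-0, was 0.06 for the SCPL genes and 0.03 for the SBT genes, beside 0.01 for all tested probe sets.

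SCPL27 (AT3G07990) had the widest difference among tested members. Its signal was 312 and 281 in the mutant and 177 and 176 in the wild type. Both mutant arrays exceeded both wild-type arrays, by 1.58-fold on the fitted scale, with a 95% interval from 1.22 to 2.03 (limma adjusted p = 0.391).

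SCPL20 (AT4G12910) gave 755 and 772 in the mutant against 520.1 and 499.7 in Col-0, with the arrays of each genotype close together. The difference was 1.47-fold, with an interval from 1.20 to 1.80 (limma adjusted p = 0.391). SCPL50 (AT1G15000) gave 489 and 585 against 345 and 354. Its groups also did not overlap, and the difference was 1.49-fold, with an interval from 1.17 to 1.89 (limma adjusted p = 0.398). When any 1 array was left out, the log2 difference kept its sign in all of these genes. It ran from 0.59 to 0.72 for SCPL27, from 0.53 to 0.58 for SCPL20 and from 0.45 to 0.69 for SCPL50.

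In SCPL35 (AT5G08260) the arrays differed by number as well as by genotype. Its signal was 1131 in array 1 and 1776 in array 2 of xrn4-5, and 796.5 and 1268 in arrays 1 and 2 of Col-0. The groups overlapped, because array 1 of xrn4-5 lay below array 2 of Col-0. The mean was 1453 ± 456 (SD, n = 2) against 1032 ± 334, a log2 difference of 0.48 with an interval from -0.24 to 1.20 (limma adjusted p = 0.673). Between same-numbered arrays the log2 ratio of the signals was 0.51 for arrays 1 and 0.49 for arrays 2. The log2 difference fell to 0.16 without array 2 of xrn4-5 and also without array 1 of Col-0, and was 0.80 without array 1 of xrn4-5 and 0.81 without array 2 of Col-0.

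Smaller differences in the same direction, with the mutant arrays above those of the wild type, were found in SCPL40, SCPL48, SCPL43 and SCPL26. SCPL40 gave 243 and 251 in the mutant against 215 and 171 in the wild type. SCPL48 gave 4342 and 3897 against 3651 and 3426. For SCPL43 the signals were 648 and 707 against 533 and 631, and for SCPL26 they were 1376 and 1208 against 1090.2 and 1199. The gap between the nearest arrays of SCPL26 and of SCPL43 was narrow. The 4 genes were 1.12-fold to 1.25-fold higher in xrn4-5, and every one of their intervals included no difference (limma adjusted p from 0.628 to 0.733). With any 1 array left out, log2 differences stayed above 0 but ran from 0.18 to 0.46 for SCPL40, from 0.14 to 0.29 for SCPL48, from 0.10 to 0.33 for SCPL43 and from 0.08 to 0.26 for SCPL26.

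In the opposite direction, the mutant arrays of 3 SCPL genes lay below those of the wild type. SCPL25 gave 2149 and 2613 in the mutant against 2910 and 2792 in the wild type. SCPL29 gave 1499.5 and 1581 against 1666 and 1844, and SCPL31 gave 216 and 268 against 335 and 274. The xrn4-5 array 2 of SCPL31 came within a few units of the Col-0 array 2. Their log2 differences were -0.26, -0.18 and -0.30 in that order, and no interval excluded 0 (limma adjusted p from 0.622 to 0.692). With any 1 array left out they ran from -0.40 to -0.12 for SCPL25, from -0.26 to -0.11 for SCPL29 and from -0.43 to -0.16 for SCPL31.

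Arrays of the 2 genotypes overlapped in the other 8 SCPL genes besides SCPL35: SCPL34, SCPL38, SCPL41, SCPL42, SCPL45, SCPL46, SCPL47 and SCPL49. SCPL49, named carboxypeptidase Y in the reference annotation after the vacuolar peptidase of yeast, gave 3576 and 5370 in the mutant against 4062 and 4712 in the wild type. Its wide spread within xrn4-5 left an interval from 0.703-fold to 1.43-fold around no difference (limma adjusted p = 0.997). SCPL38 was the most uneven of the 8 within Col-0, with 188 and 166 in the mutant against 289 and 151. Over these 8 genes and SCPL35 together with the overlapping SBT genes, 11 in all, log2 differences ran from -0.22 to 0.48 (limma adjusted p from 0.673 to 0.997).

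Among the subtilases, SBT5.4 (AT5G59810) differed most. Overexpression of this gene is known to give a clavata-like phenotype. Its signal was 281 and 279 in the mutant and 457 and 404 in the wild type. The xrn4-5 arrays were nearly equal and both below Col-0, which was 1.48-fold higher, with an interval from 1.18 to 1.86 (limma adjusted p = 0.391). Leaving out any 1 array gave log2 differences from -0.65 to -0.48.

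SBT1.3 (AT5G51750) lay on the other side. It gave 5103 and 5484 in the mutant against 4473 and 4024.5 in Col-0, 1.25-fold higher in xrn4-5 with an interval from 1.03 to 1.501 (limma adjusted p = 0.497). SBTI1.1 (AT1G01900), also called ATSBT1.1, cleaves the precursor of the growth peptide phytosulfokine 4. Its signals of 991 and 988 in xrn4-5 lay above the 871 and 790 of Col-0. The log2 difference was 0.25, with an interval from -0.05 to 0.55 (limma adjusted p = 0.611).

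SBT4.12 and SBT4.13 are known to help release the abscission peptide IDA from its precursor. SBT4.13 gave 654 in array 1 and 1083 in array 2 of xrn4-5, and 709 and 1266 in arrays 1 and 2 of Col-0. Array 2 was the higher one in both genotypes, the groups overlapped, and the log2 difference was -0.17 with an interval from -0.998 to 0.667 (limma adjusted p = 0.902). SBT3.5, which processes a pectin methylesterase in roots, gave 193 and 180.2 in the mutant against 131 and 248.5 in Col-0. Both xrn4-5 values lay between those of Col-0 (limma adjusted p = 0.980). SBT3.5 is the middle gene of the 5 tested subtilases, and the median of their log2 differences went from 0.03 to -0.36 without array 1 of Col-0.

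**Figure D2:**
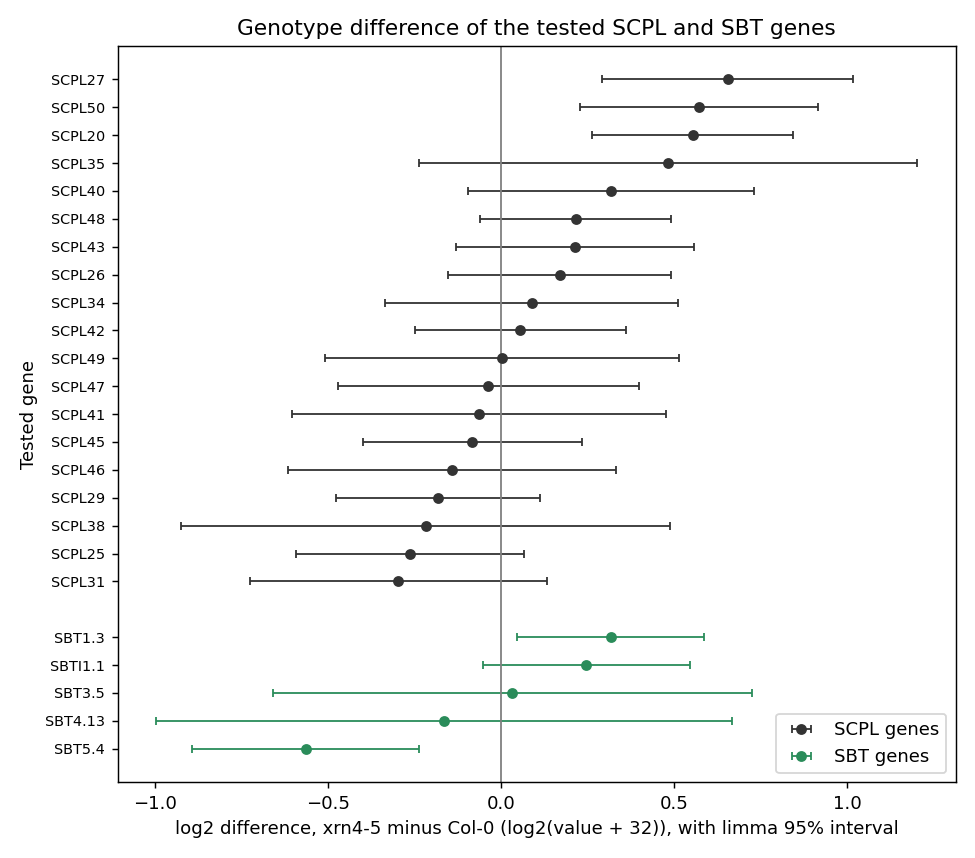
Difference in log2(value + 32), xrn4-5 minus Col-0, for the 19 tested SCPL genes (black) and 5 tested SBT genes (green), with limma 95% intervals that are not adjusted for the number of genes. The intervals of SCPL27, SCPL50, SCPL20, SBT1.3 and SBT5.4 leave out 0, and all others include it.

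Groups that did not overlap were common across the whole array, and were counted for the members against that background. Higher signal in both mutant arrays than in either wild-type array was seen for 9 of the 24 tested members, 37.5% against 22.8% of all tested probe sets. Lower signal in both was seen for 4 members, 16.7% against 18.6%. With 2 arrays per genotype an exact permutation test of a single gene cannot give a two-sided p below 0.333. The sign of the log2 difference was the same under every alternative that could be run for 14 of the 24 tested members. In the other 10 it turned at least once when an array was left out.

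Of the 13 members too dim to be tested, 10 are SCPL genes and 3 are SBT genes. SCPL16 (AT3G12220) stood apart among them. Its signal was 5.20 and 5.60 in the mutant and 57.4 and 62.9 in the wild type, a log2 difference of -1.30 after 32 was added to each value. All 4 values are far below the filter, and no detection call was used here, so these signals may not measure the transcript. In a limma fit that kept dim probe sets its unadjusted p was 0.000425 and its adjusted p was 0.516. At least 2-fold lower linear means in xrn4-5 with separated arrays were found in 5.66% of all dim probe sets, and at least 5-fold lower ones in 0.912%. In the authors' deposited table the log2 ratios of SCPL16 were -3.7 and -3.3 for the pairs of arrays 1 and of arrays 2. The authors' change p-values were 0.854 and 0.942, where a value near 1 stands for a decrease. Both stayed under the limit of 0.99 used below for a decrease.

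The other 12 dim members had signals from 5.90 to 180 and log2 differences from -0.21 to 0.32. Of these, SBT3.12 had separated arrays, with 149 and 133 in the mutant against 180.3 and 155 in Col-0, and the rest overlapped. SBT3.3, a subtilase of immune priming, gave 40.3 and 27.8 against 10.6 and 34.3. SBT4.12 gave 52.2 and 48.6 against 50.5 and 53.0. The remaining dim genes are SCPL18, SCPL21, SCPL22, SCPL23, SCPL28, SCPL30, SCPL32, SCPL33 and SCPL44.

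The authors' deposited table compares same-numbered arrays pair by pair, with log2 ratios rounded to 1 decimal. In it, 8 of the 24 tested members had a ratio above 0 in both pairs and 4 had one below 0 in both. The other 12 had a ratio of 0 or opposite signs. These signs were not counted over all tested probe sets, so the 8 and 4 have no background to be read against. SCPL20, SCPL27 and SCPL35 had an increase in both pairs of the authors' deposited table, each time at a change p-value under 0.01, 12.5% of the tested members against 3.59% of all tested probe sets. Their ratios there were 0.3 and 0.6 for SCPL20, 0.4 and 0.4 for SCPL27, and 0.4 and 0.4 for SCPL35. For a decrease in both pairs, with values over 0.99, the authors' deposited table held 0 of the 24 members against 2.98% of all tested probe sets. SBT5.4 had ratios of -0.4 and -0.2 in the authors' deposited table, with change p-values of 0.921 and 0.777. SBT1.3 had 0.2 and 0.3, with 0.00108 and 0.0789. SCPL50 had 0.3 and 0.3, with change p-values of 0.0142 and 0.0656, above 0.01 in both pairs.

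**Figure D3:**
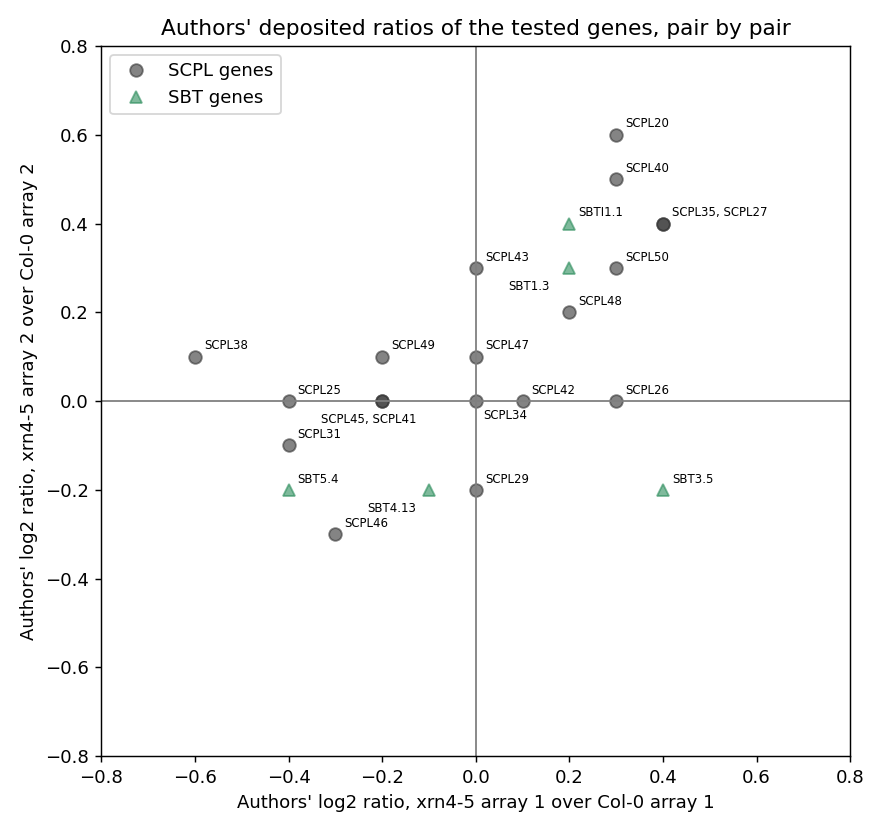
Log2 ratios of xrn4-5 over Col-0 from the authors' deposited table for the 24 tested members, arrays 1 on the x axis and arrays 2 on the y axis, circles for SCPL and triangles for SBT genes. SCPL20, SCPL27, SCPL35 and SCPL40 lie farthest into the upper right, and SBT5.4, SBT4.13, SCPL31 and SCPL46 are the 4 below 0 in both pairs.

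In some members the arrays of one genotype also differed from each other in a way shared by both genotypes. Array 2 was at least 1.5-fold above array 1 in both genotypes for SCPL35 (1.57-fold in xrn4-5 and 1.59-fold in Col-0) and SBT4.13 (1.66-fold and 1.79-fold), 2 of 24 tested members, against 1.32% of all tested probe sets. Over all tested members array 2 was the higher one in both genotypes for 9 and the lower one in both for 7. The order differed between genotypes for 8. These orders were not counted over all tested probe sets.

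**Figure D4:**
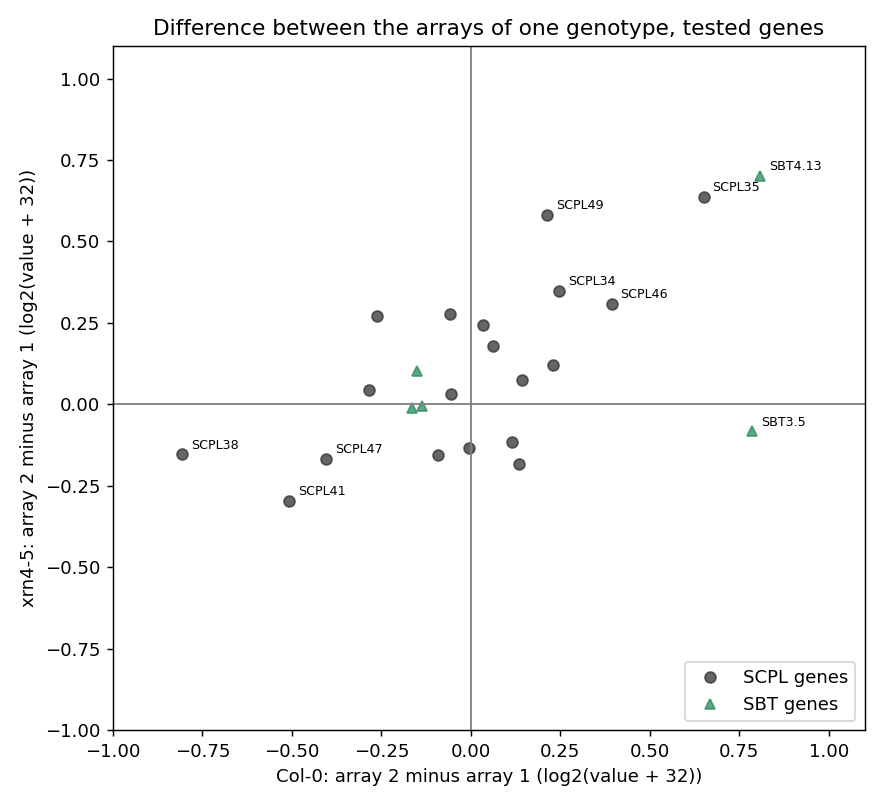
Array 2 minus array 1 in log2(value + 32), Col-0 on the x axis and xrn4-5 on the y axis, for the 24 tested members, circles for SCPL and triangles for SBT genes. SCPL35 and SBT4.13 lie at the upper right, with array 2 higher in both genotypes, and SBT3.5 lies far to the right, with a gap between the arrays of Col-0 only.

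Several members are neighbours on a chromosome in the reference annotation. SCPL22 and SCPL23 are adjacent genes, as are SCPL28 and SCPL26. SCPL41 and SCPL42 have 2 protein-coding genes between them, and their log2 differences were -0.06 and 0.06. SBT4.12 and SBT4.13 have 3 genes between them, and SBT3.5 and SBT3.3 have 1. In each of these other 4 pairs at least 1 gene was too dim to be tested. Cross-hybridisation between related genes was not tested.

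Related genes that do not carry an SCPL or SBT symbol were read from lists of 149 entries in 6 groups. Few of these entries could be matched by name to a probe set of a single gene. Of the 20 tested genes, 0 had a limma adjusted p under 0.05. At an unadjusted p under 0.05, 2 had higher and 2 had lower signal in xrn4-5: GAMMA-VPE and CLE41, and ATPMEPCRB and ALDH2C4. Over all tested probe sets the shares were 5.38% higher and 3.95% lower. Of subtilase and carboxypeptidase genes under other names, 3 of 15 entries were tested, with 2 estimates above 0 and 1 below, and a median log2 difference of 0.11. The entries SNG1 and SNG2, for the enzymes that make sinapate esters, were not matched, and these enzymes are not among the members. ARA12, a subtilase needed for seed coat mucilage release, gave 5415 and 4232 in the mutant against 4856 and 3526 in the wild type. S1P, the site-1 protease of the Golgi, gave 409 and 457 against 385 and 415. TPP2, tripeptidyl peptidase II, gave 1643 and 1635.5 against 1701 and 1779 (limma adjusted p from 0.776 to 0.847 for the 3 genes).

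Of the list for sinapate and other phenylpropanoid esters, 3 of 21 entries were tested, with 1 estimate above 0 and 2 below (median log2 difference -0.02). ALDH2C4, an aldehyde dehydrogenase that forms sinapate and ferulate, gave 623 and 631 in the mutant against 932.5 and 929 in Col-0. The arrays of each genotype were close together, and Col-0 was 1.46-fold higher (limma adjusted p = 0.391). UGT84A3, a glucosyltransferase of hydroxycinnamates, averaged 508 ± 131 (SD, n = 2) against 437 ± 70.9, and HCT, an acyltransferase of lignin synthesis, averaged 1599 ± 34.7 against 1619 ± 75.1.

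Of secreted peptides and receptors, 4 of 38 entries were tested, with 3 estimates above 0 and 1 below (median 0.13). CLE41, a peptide that maintains vascular stem cells, gave 994 and 998 in the mutant against 740.3 and 715 in Col-0, 1.35-fold higher (limma adjusted p = 0.432). FER, the receptor kinase for RALF peptides, averaged 1664 ± 37.1 (SD, n = 2) against 1391 ± 178. STOMAGEN, which promotes stomata, averaged 476 ± 5.66 against 576 ± 95.04.

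Both tested genes of the 23 pectin methylesterase and inhibitor entries had lower estimates (median -0.36). ATPMEPCRB averaged 238 ± 59.3 (SD, n = 2) in the mutant against 345 ± 43.8 in Col-0, and PME61 averaged 202 ± 38.3 against 239 ± 42.7. Both tested protease inhibitor genes, of 13 entries, had higher estimates (median 0.17). The cystatin CYS1 averaged 3458 ± 25.4 against 3140 ± 156, and SERPIN1 averaged 1325 ± 135 against 1165 ± 289.

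Of other proteases, 6 of 39 entries were tested, with 4 estimates above 0 and 2 below (median 0.13). GAMMA-VPE, a vacuolar processing enzyme, gave 2801 and 4413 in the mutant against 2199 and 2402 in the wild type (limma adjusted p = 0.522). Its relative BETA-VPE, of seeds, averaged 448 ± 101 (SD, n = 2) against 390.4 ± 14.5, and the chloroplast aspartic protease NANA averaged 194 ± 29.7 against 166 ± 38.7.

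Marker genes of the tissue were thinly covered. Matching went by gene name to probe sets of a single gene, so an unmatched marker may still have probes on the array. Of the floral organ list only SPT was matched. It gave 223 ± 0.424 (SD, n = 2) in the mutant and 219 ± 74.3 in the wild type. Both matched tapetum markers, ATA27 and AMS, had lower signal in both mutant arrays than in either wild-type array. Their summed signal was 5662 and 6026 in the mutant against 7010 and 6372 in the wild type, most of it from ATA27. For AMS the nearest arrays were close, at 521 in the mutant and 526 in the wild type. The 5 pollen markers summed to 1291 and 1391 against 1825 and 1429, and of the 3 tested ones TUA1 and ACT12 had separated arrays, lower in the mutant, while AGL65 did not. Separated arrays with lower signal in xrn4-5 were found in 18.6% of all tested probe sets. The seed marker BAN gave 409 and 319 against 670 and 182, and the root marker EXPA7, too dim to be tested, gave 79.4 and 76.6 against 101.8 and 110.2. Leaf markers summed to between 26983 and 30728 in the 4 arrays. The part of these cell types in the differences of SCPL and SBT genes was not tested. In RNA from a whole inflorescence, fewer cells of a type and less RNA per cell cannot be told apart.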

How the data were processed

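Linear intensities, 1 for each probe set in each array, were taken from the deposited value table. They had been scaled by the authors, since the 2% trimmed mean was 500.04 in all 4 arrays; the submitters' processing notes name GCOS. A second deposited table holds the authors' log2 ratios per pair of same-numbered arrays, per the file headers, with the authors' change p-value, with no account of its computation.

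Intensities were analysed as log2(value + 32) without further normalization. The 64 control probe sets and the 40% dimmest were left out. Genotypes were compared with limma 3.58.1 (R 4.3.3), two-sided, as lmFit followed by eBayes with trend, adjusted by Benjamini-Hochberg over 13647 probe sets, with 2 residual and 3.73 prior degrees of freedom. The procedure was also run on simulated arrays, drawn independently of each other, with known changes of 2-fold or more. Smaller changes and arrays that deviate together were not simulated. Genes were named from the platform annotation and matched to TAIR10.1 identifiers. All members were named; array values were given for members with separated arrays, the 3 smallest p-values and the 3 highest means per family, and some were added after their values were seen. Of each list of related genes, the 3 genes with the smallest p were named. Members and lists were chosen with earlier results of these data known. The number of arrays limits precision. Alternatives are given in the closing section.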

Additional observations from a re-analysis of the deposited data

How the results depend on the processing

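No SCPL or SBT gene was called at an adjusted p under 0.05 in any of the 12 alternatives run. The count of members higher at an unadjusted p under 0.05 stayed between 3 and 5. The count lower, 1 in the main result, was 2 when dim probe sets were kept, which adds SCPL16, and 0 when the 60% dimmest were left out, which removes SBT5.4 from the test. It lay between 1 and 2 when an array was left out. The median log2 difference of the SCPL genes, 0.06 in the main result, was 0.08 when array 1 or array 2 of xrn4-5 was dropped, 0.10 and 0.11 without array 1 and array 2 of Col-0, 0.03 with median centring and 0.01 with dim probe sets kept. That of the SBT genes, 0.03 in the main result, was 0.25 without the 60% dimmest. It ran from -0.36 to 0.24 over the fits that left out 1 array, the lowest without array 1 of Col-0. The sign of SCPL49 turned to -0.02 with median centring. With an array left out, log2 differences ran from -0.09 to 0.26 for SCPL34, -0.0022 to 0.11 for SCPL42, -0.29 to 0.29 for SCPL49, -0.24 to 0.17 for SCPL47, -0.32 to 0.19 for SCPL41, -0.17 to 0.01 for SCPL45, -0.34 to 0.06 for SCPL46, -0.62 to 0.18 for SCPL38, -0.36 to 0.43 for SBT3.5 and -0.57 to 0.24 for SBT4.13. Those fits take a lone array to vary as much as a pair does. The causes of these moves were not tested. With the array number as a replicate block, 0 members and 131 probe sets were called, and the smallest adjusted p of a member was 0.0907. SCPL35, with an adjusted p of 0.0967 there, joined the members higher at an unadjusted p under 0.05, 5 in all. Arrays of one number deviated together (correlation 0.42 over tested probe sets), but no label ties a number to a batch. The lowest-mean probe set of a gene could not be tried, since no member had several.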

Other observations

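The authors' deposited log2 ratios and the log2 ratios of the deposited signals differed for some members. For SBT5.4 the signals gave -0.70 and -0.54 in the pairs of arrays 1 and 2, against -0.4 and -0.2 in the authors' deposited table. For SCPL27 they gave 0.82 and 0.68 against 0.4 and 0.4 in the authors' deposited table. For the dim gene SCPL44 the sign itself differed, with -0.17 and -0.08 from the signals against 0.5 and 0.3 in the authors' deposited table. The dim gene SCPL21 also differed in sign in both pairs, with 0.13 and -0.09 from the signals against -0.3 and 0.3. For SCPL22, SCPL23 and SCPL33, also dim, the sign differed in a single pair. For SCPL16 both sources gave large differences, -3.46 and -3.49 from the signals against -3.7 and -3.3. The sources do not say how the authors formed their ratios, and the cause of the gaps was not tested.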
